A study of Homo sapiens with 9 samples.

Results

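Integrin and laminin genes, which encode the receptors and the core protein of the epithelial basement membrane, were followed in 5-Aza-treated HT-29, a line from a human colon adenocarcinoma. 5-Aza (5-aza-deoxycytidine) is a cytidine analog that is built into DNA and traps DNA methyltransferases, so that methylation is lost as the cells divide. The genes were chosen by symbol: ITGA or ITGB with a number, the lettered alpha chains ITGAD, ITGAE, ITGAL, ITGAM, ITGAV and ITGAX, and LAMA, LAMB or LAMC with a number. Of the 19775 genes that the probe table names, 35 met this rule, of which 18 encode integrin alpha chains, 7 integrin beta chains and 10 laminin chains. Another 10 symbols begin with the same letters but belong to binding proteins, antisense or divergent transcripts and a pseudogene, and were left out. The 9 cultures were monolayers of the 1 line in medium with serum, 3 given the vehicle DMSO (0 µM), 3 given 5 µM and 3 given 10 µM 5-Aza, all for 5 days according to the methods of the study. RNA of each culture went to its own Affymetrix U133 Plus 2.0 array. A cell line in culture holds no stroma, blood vessels or immune cells, which limits it as a model of the gut wall.

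An integrin is a pair of 1 alpha and 1 beta chain that spans the cell membrane, binds matrix or a neighbouring cell outside and is tied to the actin or keratin cytoskeleton inside. A laminin is a trimer of an alpha, a beta and a gamma chain and is the core network of the basement membrane on which gut epithelium sits. The alpha chain largely sets what an integrin binds: laminin, collagen, proteins with an RGD motif, or counter-receptors on other cells. The measure throughout is the log2 signal of 1 probe set per gene, the one with the highest mean over the 9 arrays, and the signals of different probe sets cannot be set against each other. A gene was tested where its signal reached the array's median signal, taken here as the floor, on every array of at least 1 group. The floors lay between 5.07 and 5.52 log2. A difference is a log2 fold change from limma with its standard error (SE) and a Benjamini-Hochberg adjusted p over all 11756 tested genes, and a gene was called at an adjusted p of at most 0.05 and a change of more than 2-fold. "Rose" and "fell" are used of genes that met the p threshold, called or not.

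Of the 35 genes, 19 were tested (9 alpha chains, 5 beta chains and 5 laminins). At 5 µM against 0 µM, 4 integrin genes were called higher, namely ITGA7, ITGAM, ITGA10 and ITGB7, and none of the 19 was called lower. Over all tested genes 8.59% were called higher and 1.32% lower. ITGA7 and ITGAM lay under the floor on each of the 3 vehicle arrays, so that they entered the test only through treated arrays and had to differ. ITGA10 lay under it on 1 vehicle array and also entered only through treated arrays, which favours a difference without forcing one. Among the 16 integrin and laminin genes that were at or above the floor on all 9 arrays, 1 (ITGB7) was called higher, which is 6.25% beside 4.62% of the 10375 genes with the same property, and none was called lower (1.22% of those genes). At any fold, 9 of the 19 rose and 4 fell, where 20.2% of all tested genes rose and 13.3% fell. Of the 16 genes above the floor on all arrays 6 rose and 4 fell, beside 17.2% and 14.4% of the genes with that property, and their median difference was 0.04 log2 beside 0.02. At 10 µM against 0 µM, 2 were called higher (ITGA7 and ITGB7, background 6.08%) and none lower (1.5%), and at any fold 5 rose and 2 fell (backgrounds 19.8% and 13.3%). Of the 16 genes above the floor on all 9 arrays, 1 (ITGB7) was called higher there, 6.25% beside 3.27% of genes with that property. None of the 16 was called lower (1.36% of those genes), and at any fold 3 rose and 2 fell, beside 18.0% and 14.5%. At 10 µM against 5 µM none was called in either direction (backgrounds 0.264% higher and 2.08% lower, or 0.183% and 1.07% of those genes), and at any fold 2 rose and 2 fell (backgrounds 6.93% and 8.92%). The counts of 0 lower calls stand beside 5 genes lower at an unadjusted limma p under 0.05 for 5 µM against 0 µM and 4 for 10 µM against 0 µM. For 10 µM against 5 µM that p gave 3 higher and 5 lower, and the methods' t-test gave 1 higher and 4 lower and no call. The 2 comparisons with 0 µM share the vehicle arrays and are not independent.

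**Figure D1:**
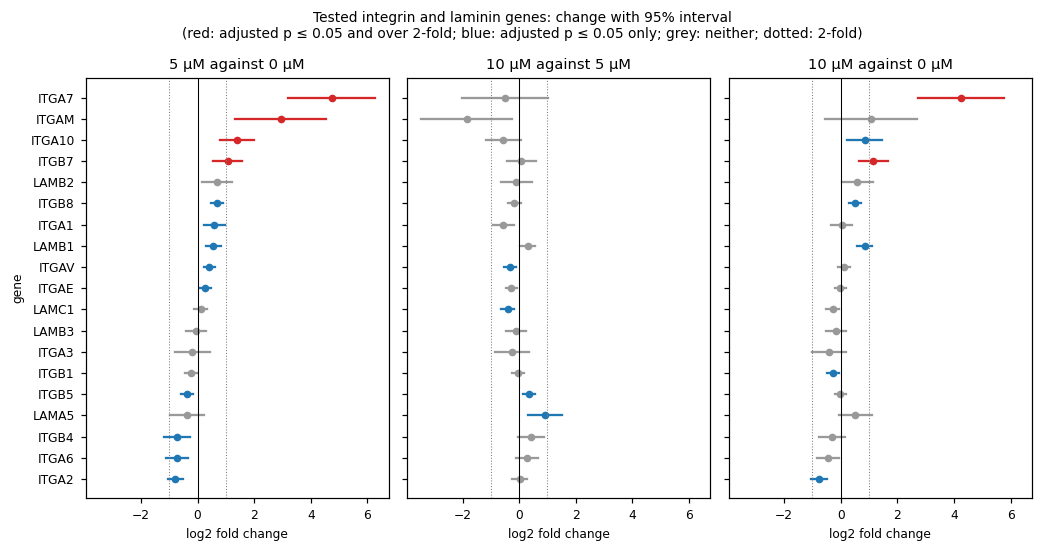
Log2 fold change (points) with its 95% interval (lines) of the 19 tested genes in the 3 comparisons on 1 common scale. Red marks an adjusted p of at most 0.05 and over 2-fold, blue the p alone, and grey neither; the 4 red genes of the left panel lie from 1.07 to 4.73, and 13 of 19 genes there are coloured.

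The promoters of 3 of the 4 called genes (ITGA10, ITGAM and ITGB7) are shown because the methylation that the drug causes to be lost lies mainly at CG dinucleotides. The RefSeq promoter table (GRCh38.p14) held a 300-base window across the transcription start for 24 of the 35 genes, with 31 windows in all, and none for ITGA7. CG is in capitals, each strand is the gene's own, 5′ to 3′, and ITGA2, which fell at both doses, was added for contrast after its values were seen. The windows are ITGA10 at chr1:145910001-145910300 (minus strand), ITGAM at chr16:31259725-31260024 (plus), ITGB7 at chr12:53207202-53207501 (minus) and ITGA2 at chr5:52989102-52989401 (plus).
ITGA10: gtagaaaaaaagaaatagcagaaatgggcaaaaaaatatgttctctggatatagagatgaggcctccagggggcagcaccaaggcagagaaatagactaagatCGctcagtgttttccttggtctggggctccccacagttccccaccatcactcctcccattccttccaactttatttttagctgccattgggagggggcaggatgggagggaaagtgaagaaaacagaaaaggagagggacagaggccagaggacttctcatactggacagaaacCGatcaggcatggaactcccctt
ITGAM: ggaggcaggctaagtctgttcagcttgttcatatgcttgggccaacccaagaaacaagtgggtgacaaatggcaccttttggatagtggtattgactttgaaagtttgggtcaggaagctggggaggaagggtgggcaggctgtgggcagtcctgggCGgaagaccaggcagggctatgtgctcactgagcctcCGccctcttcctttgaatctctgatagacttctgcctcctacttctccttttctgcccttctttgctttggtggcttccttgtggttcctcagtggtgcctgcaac
ITGB7: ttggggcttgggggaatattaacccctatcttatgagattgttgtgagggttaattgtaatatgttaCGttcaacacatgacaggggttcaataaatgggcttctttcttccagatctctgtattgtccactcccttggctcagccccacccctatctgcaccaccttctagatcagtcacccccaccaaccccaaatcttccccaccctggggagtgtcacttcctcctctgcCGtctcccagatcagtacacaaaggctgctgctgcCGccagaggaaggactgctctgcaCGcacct
ITGA2: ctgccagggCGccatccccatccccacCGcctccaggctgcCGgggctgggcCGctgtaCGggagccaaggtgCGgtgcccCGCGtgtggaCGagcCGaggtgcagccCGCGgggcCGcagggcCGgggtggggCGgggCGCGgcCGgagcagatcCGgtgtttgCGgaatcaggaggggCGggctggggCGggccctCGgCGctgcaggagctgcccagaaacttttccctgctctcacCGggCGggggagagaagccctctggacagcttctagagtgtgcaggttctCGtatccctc

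The windows of ITGA10 and ITGAM held 2 CG each and that of ITGB7 held 4, whereas that of ITGA2 held 27. Over all 35116 windows of the table the median was 14 CG with quartiles of 4 and 28, and 18.2% held at most 2 and 29.6% at most 4. Other genes that rose at 5 µM by less than 2-fold had windows with up to 35 CG: LAMB1 held 35, ITGB8 28, ITGA1 19 and ITGAE 10, and ITGAV 23 and 1 in its 2 windows. ITGA10 and ITGAM entered the test only through treated arrays, and ITGA2B and LAMB4, with 2 CG each, were not tested, so that no relation of CG count to response is drawn. 3 letter motifs were searched on both strands. TGANTCA, the AP-1 motif, was in a window of 2 genes (ITGA5 and LAMB3) and in 7.71% of all windows, and the GC box GGGCGG was in a window of 13 genes and in 45.0% of all windows. The TATA box TATAAA was in a window of 2 genes (ITGA6 and ITGB1) and in 11.5% of all windows. ITGAM held 2 GC boxes, ITGA2 held 4, and ITGA10 and ITGB7 held none of the 3 motifs. These letter counts describe the reference sequence; methylation was not measured here.

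Laminin receptors are the integrins of ITGA3, ITGA6 and ITGA7 with ITGB1, and of ITGA6 with ITGB4, which anchors keratin at hemidesmosomes. In these genes ITGA7 rose at both doses, while ITGA6 and ITGB4 fell at 5 µM and the ITGA3 difference did not pass. ITGA7, best known from muscle, gave 4.62, 1.32 and 2.72 log2 on the vehicle arrays, 7.53, 7.33 and 8.01 at 5 µM, and 7.32, 6.87 and 7.17 at 10 µM. Every treated array lay above every vehicle array, and all vehicle values were below the floor. The difference was 4.73 (SE 0.67, adjusted p 0.00105) at 5 µM and 4.23 (SE 0.67, adjusted p 0.00252) at 10 µM. Since the vehicle signal was below the floor, the change is given as at least 5.56-fold and at least 3.92-fold. The second ITGA7 probe set was higher by 2.39 and 2.03 log2 but reached the floor on 1 of 9 arrays.

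ITGA6, the alpha chain shared by both kinds of laminin receptor, gave 12.64, 12.28 and 12.40 at 0 µM, 11.69, 11.54 and 11.92 at 5 µM, and 12.05, 12.22 and 11.68 at 10 µM. The 5 µM arrays all lay below the vehicle arrays, and the gene fell (difference -0.73, SE 0.17, adjusted p 0.0109), and the second probe set differed by -0.87. At 10 µM the difference was -0.46 (95% interval -0.84 to -0.07) with an adjusted p of 0.0660. ITGB4, its hemidesmosome partner, gave 9.91, 10.01 and 10.44 at 0 µM, 9.48, 9.33 and 9.39 at 5 µM, and 10.23, 9.49 and 9.73 at 10 µM. It fell at 5 µM (difference -0.72, SE 0.20, adjusted p 0.0249), and its 10 µM arrays overlapped those of the vehicle. This p was over the threshold when 0 µM replicate 3 or any single 5 µM array was left out (up to 0.0750). The other 2 ITGB4 probe sets above the floor on all 9 arrays differed by -0.75 and -0.27 at 5 µM.

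ITGB1, the beta chain that most alpha chains named here pair with, was between 13.39 and 13.78 on all 9 arrays. Its difference was -0.23 (adjusted p 0.0795) at 5 µM and -0.27 (SE 0.09, adjusted p 0.0477) at 10 µM, where the direction turned to 0.07 with quantile normalization. The p at 10 µM was over the threshold when any single array other than 10 µM replicate 2 was left out (0.0621 to 0.154). The other 2 ITGB1 probe sets above the floor on all 9 arrays differed by -0.39 and -0.38 at 5 µM. At 10 µM they differed from the vehicle by -0.65 and -0.52. In these and in the one used, every treated array lay below every vehicle array. ITGA3, the epithelial alpha chain for laminin, gave 8.41 to 8.78 at 0 µM, 8.35 to 8.52 at 5 µM and 8.88, 7.75 and 7.87 at 10 µM. Its groups overlapped, and the 95% interval of the difference ran from -0.78 to 0.43 at 5 µM and from -1.03 to 0.18 at 10 µM.

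**Figure D2:**
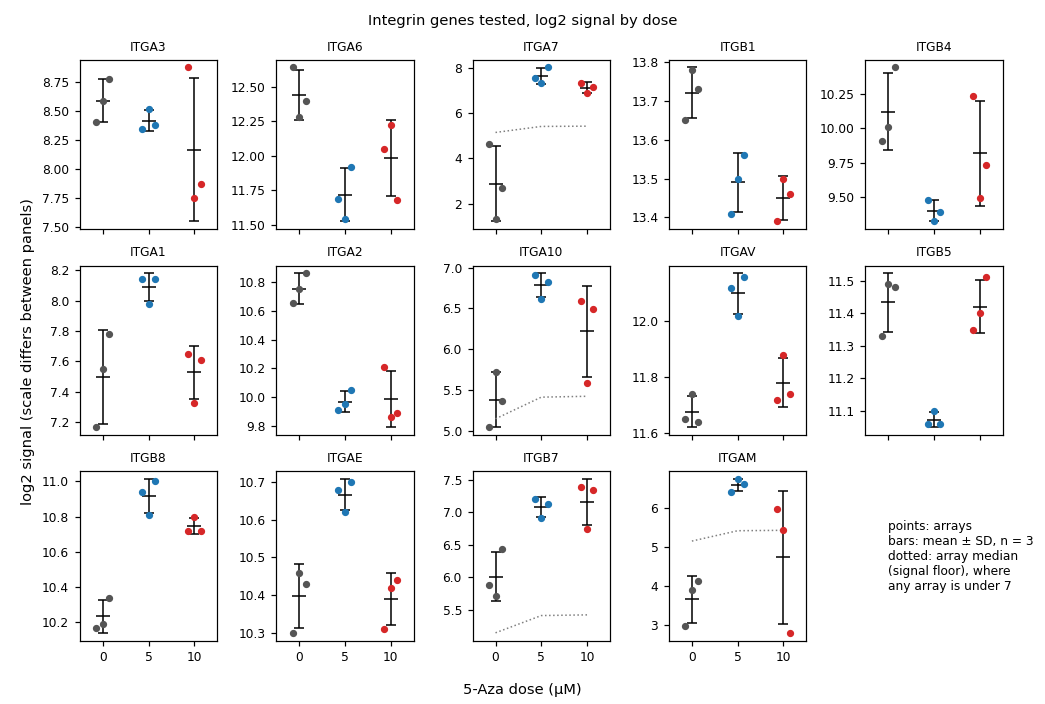
Log2 signal of the 14 tested integrin genes on each array by 5-Aza dose in µM, with the mean and SD (n = 3) in black and the floor dotted where any array was under 7. ITGA7 rises from 1.32 to 4.62 at 0 µM to 6.87 to 8.01 with drug, while 1 ITGAM array at 10 µM (2.79) falls back among the vehicle arrays.

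Collagen receptors are the integrins of ITGA1, ITGA2, ITGA10 and ITGA11 with ITGB1. ITGA10 and ITGA1 rose at 5 µM and ITGA2 fell, while ITGA11 was below the floor on all 9 arrays. ITGA10, known from cartilage, gave 5.05, 5.72 and 5.37 at 0 µM, 6.91, 6.62 and 6.82 at 5 µM, and 6.59, 5.58 and 6.49 at 10 µM. All 5 µM arrays were above the vehicle arrays (difference 1.40, SE 0.27, adjusted p 0.00487), a change of 2.64-fold. At 10 µM, replicate 2 lay among the vehicle arrays, and the difference was 0.84 (SE 0.27, adjusted p 0.0423). Without that array it was 1.16 and called, and without 0 µM replicate 2 it was 1.01 and called. It missed the p threshold when any single 5 µM array, 0 µM replicate 1 or 3, or 10 µM replicate 1 or 3 was left out, with differences from 0.66 to 0.84.

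ITGA2, the main epithelial collagen receptor chain, gave 10.65, 10.75 and 10.86 at 0 µM, 9.91, 9.95 and 10.05 at 5 µM, and 10.21, 9.86 and 9.89 at 10 µM. Every treated array lay below every vehicle array. The difference was -0.78 (SE 0.12, adjusted p 0.00154) at 5 µM and -0.77 (SE 0.12, adjusted p 0.00239) at 10 µM, and the doses did not differ beyond their spread (0.02, 95% interval -0.26 to 0.29). The second probe set differed by -0.41 and -0.65, and with the mean of both the adjusted p was 0.0976 and 0.0588. With array medians made equal, ITGA2 was called lower in both comparisons (-1.05 and -1.04). ITGA1 lies next to ITGA2 on chromosome 5 in RefSeq and gave 7.17, 7.55 and 7.78 at 0 µM, 8.14, 7.98 and 8.14 at 5 µM, and 7.65, 7.33 and 7.61 at 10 µM. It rose at 5 µM (difference 0.59, SE 0.16, adjusted p 0.0238), and at 10 µM its mean was 0.03 log2 from the vehicle (95% interval -0.34 to 0.40). Another ITGA1 probe set, at or above the floor on all 9 arrays, differed by 0.35 at 5 µM and 0.06 at 10 µM. Its 5 µM arrays overlapped those of the vehicle. The ITGA1 p at 5 µM rose to between 0.0534 and 0.0750 without 0 µM replicate 1 or 2 or 5 µM replicate 1 or 3.

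Receptors built on ITGAV bind the RGD motif of fibronectin, vitronectin and latent TGF-beta. Of the beta chains examined here, ITGAV pairs with ITGB1, ITGB3, ITGB5 and ITGB8. ITGB6 was not among the genes with a probe set used here and was not examined. ITGAV and ITGB8 rose at 5 µM, ITGB5 fell, and ITGB3 was not tested. ITGB8, whose pair with ITGAV binds latent TGF-beta, gave 10.17, 10.19 and 10.34 at 0 µM, 10.94, 10.81 and 11 at 5 µM, and 10.72, 10.80 and 10.72 at 10 µM. The groups with drug did not overlap the vehicle group, with differences of 0.68 (SE 0.10, adjusted p 0.00099) and 0.52 (SE 0.10, adjusted p 0.00488). All 5 ITGB8 probe sets had higher means at both doses, by 0.52 to 1.28 log2, though 3 of them were at or above the floor on at most 3 arrays.

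ITGAV itself gave 11.65, 11.74 and 11.64 at 0 µM, 12.12, 12.02 and 12.16 at 5 µM, and 11.72, 11.88 and 11.74 at 10 µM. It rose at 5 µM (0.42, SE 0.09, adjusted p 0.00784) and was lower at 10 µM than at 5 µM (-0.32, SE 0.09, adjusted p 0.0477). ITGB5, the vitronectin receptor beta chain, went the other way. It gave 11.33, 11.49 and 11.48 at 0 µM, 11.06, 11.10 and 11.06 at 5 µM, and 11.35, 11.40 and 11.51 at 10 µM, a fall at 5 µM (difference -0.36, SE 0.09, adjusted p 0.0155) and a rise from 5 to 10 µM (0.35, SE 0.09, adjusted p 0.0361). The fall at 5 µM missed the p threshold without 0 µM replicate 2 or 3 or 5 µM replicate 1 or 3 (0.0521 to 0.0621). Its other 3 probe sets were all lower at 5 µM (differences -0.12 to -0.76), and at 10 µM they differed from the vehicle by -0.50, 0.41 and 0.01.

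Integrins of leukocytes made up the rest of the tested integrin genes. ITGAM and ITGB7 were called at 5 µM, ITGAE rose by less than 2-fold, and the common leukocyte beta chain ITGB2 was below the floor on all 9 arrays. ITGAM, the alpha chain of the complement receptor of myeloid cells, gave 2.96, 3.88 and 4.11 at 0 µM, 6.41, 6.73 and 6.60 at 5 µM, and 5.96, 5.43 and 2.79 at 10 µM. The 5 µM arrays lay above all vehicle arrays (difference 2.93, SE 0.71, adjusted p 0.0135), which is at least 2.70-fold against the floor. At 10 µM the arrays disagreed, with 2 at or above the floor and replicate 3 at the vehicle level, and the difference was 1.07 (95% interval -0.54 to 2.69, adjusted p 0.271). Without that replicate it was 2.04 with an adjusted p of 0.00652 and called. The second ITGAM probe set did not show the change, with differences of 0.11 and -0.08, and reached the floor on 1 of 9 arrays. ITGB2 is the beta chain that ITGAM pairs with.

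ITGB7, which pairs with ITGAE or ITGA4 on lymphocytes that home to the gut, gave 5.89, 5.71 and 6.43 at 0 µM, 7.21, 6.92 and 7.13 at 5 µM, and 7.39, 6.75 and 7.34 at 10 µM. All treated arrays lay above all vehicle arrays. The difference was 1.07 (SE 0.22, adjusted p 0.00687), or 2.10-fold, at 5 µM and 1.15 (SE 0.22, adjusted p 0.00608), or 2.22-fold, at 10 µM. This was close to the 2-fold limit, and without 0 µM replicate 2 the differences were 0.92 and 1.00 and neither was called. With quantile normalization or equal array medians ITGB7 was not called at either dose. ITGAE, whose pair with ITGB7 binds E-cadherin, was between 10.30 and 10.70 on all 9 arrays. Its rise at 5 µM was 0.27 (SE 0.09, adjusted p 0.0453), and it was lost when any vehicle array, any 5 µM array or 10 µM replicate 3 was left out (adjusted p up to 0.155) and came to 0.00 with equal array medians. ITGA4, the other alpha partner, was below the floor on all arrays.

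**Figure D3:**
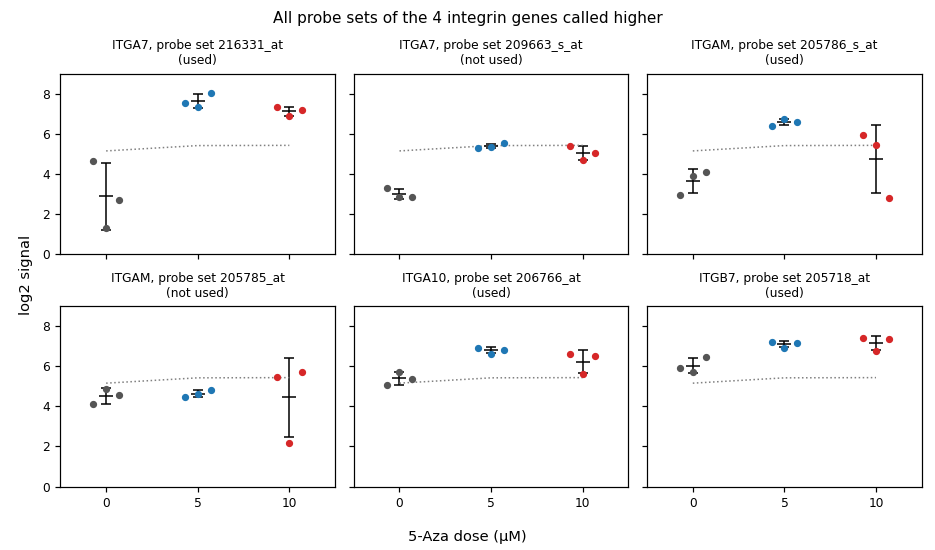
Log2 signal of every probe set of ITGA7, ITGAM, ITGA10 and ITGB7 on each array by 5-Aza dose in µM, with the mean and SD (n = 3) in black and the floor dotted. The 2 probe sets of ITGA7 are both higher with drug, and only 1 of the 2 for ITGAM is.

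Leukocyte markers were mostly under the floor. Of 10 such markers with a probe set used here, 8 were below the floor on all 9 arrays, among them PTPRC, CD3D, MS4A1, CSF1R and SPI1. The 1 tested, CD14, did not pass in any comparison. The log2 of their summed signals was 7.37 to 7.88 at 0 µM, 7.53 to 8.08 at 5 µM and 7.45 to 7.97 at 10 µM. Of 12 colon epithelium markers, 10 were tested, and CDX1 and CDX2 were below the floor on all 9 arrays. EPCAM and CDH1 were at 12.50 or above on all 9. Of the tested markers, 1 rose and 5 fell at 5 µM (backgrounds 20.2% and 13.3%) and none rose and 5 fell at 10 µM (19.8% and 13.3%), with KRT19 called lower at both doses (-1.54 and -1.37) and KRT8 at 10 µM (-1.05). Their summed signal was 16.56 to 16.61 log2 at 0 µM, 16.02 to 16.18 at 5 µM and 15.90 to 16.08 at 10 µM. Of 6 platelet and megakaryocyte markers with a probe set used here 3 were tested, none was called, and 2 rose at 10 µM against 0 µM (background 19.8%). In a whole culture, fewer cells with a transcript and less of it per cell cannot be told apart.

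Of the laminin chains, LAMB1 rose at both doses, none was called, and LAMA5 and LAMC1 passed only between the doses. LAMB1, a beta chain of widespread basement membrane laminins, gave 9.14, 9.23 and 9.36 at 0 µM, 9.87, 9.80 and 9.73 at 5 µM, and 10.22, 9.89 and 10.18 at 10 µM. The 3 groups did not overlap. The difference from the vehicle was 0.56 (SE 0.12, adjusted p 0.00699) at 5 µM and 0.86 (SE 0.12, adjusted p 0.00126) at 10 µM, and the difference between the doses was 0.30 (95% interval 0.04 to 0.57, adjusted p 0.112). The second LAMB1 probe set differed by 0.48 and 0.90.

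LAMA5, the main alpha chain of adult epithelial basement membranes, gave 10.11, 10.06 and 10.51 at 0 µM, 9.95, 10.17 and 9.38 at 5 µM, and 11.16, 10.29 and 10.78 at 10 µM. The vehicle arrays overlapped both treated groups, and 10 µM was above 5 µM by 0.91 (SE 0.26, adjusted p 0.0495). Without 10 µM replicate 2 this was 1.14 and called. LAMC1, the common gamma chain, was 9.79, 9.64 and 9.65 at 0 µM, 9.67, 9.85 and 9.92 at 5 µM, and 9.45, 9.38 and 9.40 at 10 µM. It was lower at 10 µM than at 5 µM (-0.41, SE 0.10, adjusted p 0.0283), but its second probe set differed by 0.03 there. Against 0 µM the LAMC1 probe sets disagreed. The second was higher by 0.39 at 5 µM and 0.42 at 10 µM, with no overlap, while the one used differed by 0.12 and -0.29. All 4 genes that passed between the doses, ITGAV, ITGB5, LAMA5 and LAMC1, had adjusted p values near the threshold, and each was over it (0.0641 to 0.158) without 5 µM replicate 2 or 3 or 10 µM replicate 3.

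LAMB2, a beta chain of muscle and vessel laminins, was 6.20 to 7.08 at 0 µM, 7.19 to 7.44 at 5 µM and 6.84 to 7.50 at 10 µM. Its 5 µM group lay above the vehicle group (0.69, 95% interval 0.15 to 1.23, adjusted p 0.0541). LAMB3, of the laminin that hemidesmosomes hold to, was 11.48 to 11.70, 11.42 to 11.59 and 11.11 to 11.74 in order of dose. Its groups overlapped, with a 95% interval from -0.40 to 0.31 at 5 µM and from -0.52 to 0.19 at 10 µM.

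**Figure D4:**
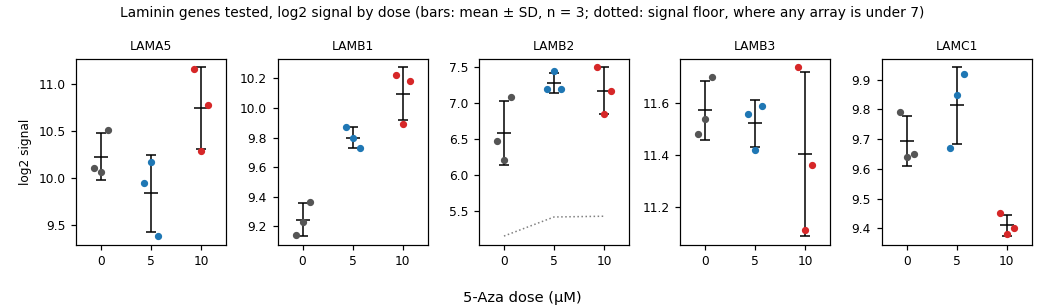
Log2 signal of the 5 tested laminin genes on each array by 5-Aza dose in µM, with the mean and SD (n = 3) in black and the floor dotted where any array was under 7. LAMB1 is higher at each dose with no overlap (means 9.24, 9.80 and 10.10), while the groups of LAMB3 overlap.

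The other 16 genes were not tested. ITGA4, ITGA8, ITGA9, ITGA11, ITGAX, ITGB2, LAMA1, LAMA4 and LAMB4 were below the floor on all 9 arrays. ITGA2B, ITGA5, ITGAD, ITGAL, ITGB3, LAMA2 and LAMC3 reached it on some arrays but on no group's 3 arrays. ITGA5, the fibronectin receptor alpha chain, reached it on 2 vehicle arrays, 1 at 5 µM and none at 10 µM, with 5.91, 3.72 and 6.01, then 2.63, 5.11 and 5.65, then 3.14, 4.87 and 2.93. LAMA2, the muscle laminin alpha chain, was at or above the floor on 1, 2 and 1 arrays in order of dose. No fold is given for these genes.

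The genes around the receptors were taken from lists of known partners. Of 30 focal adhesion adaptors with a probe set used here 24 were tested. Of these, 3 rose and 5 fell at 5 µM (backgrounds 20.2% and 13.3%), and the median difference was -0.08 beside 0.04 for all tested genes. FERMT2, the kindlin of most adherent cells, was called higher at 5 µM (difference 4.58, SE 0.42, adjusted p 0.000117, at least 2.48-fold). Its values were 2.20, 0.77 and 2.65 at 0 µM, 6.28, 6.38 and 6.70 at 5 µM, and 5.25, 5.42 and 4.75 at 10 µM, where it reached the floor on 1 array, so no size is given there. FERMT2 entered the test only through the 5 µM arrays and had to differ. FERMT1, the epithelial kindlin, went down from 11.82, 11.98 and 11.66 to 10.38, 10.70 and 10.63 at 5 µM (-1.25, SE 0.14, adjusted p 0.000313). At 10 µM it gave 11.03, 11.38 and 11.32 (-0.58, adjusted p 0.0146). ZYX, zyxin, was called lower at 10 µM (-1.33, SE 0.18, adjusted p 0.00115). Kindlins bind integrin beta tails and switch integrins on.

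Of 28 integrin ligands other than laminins, 15 were tested and 5 were called higher at each dose against 0 µM, with none called lower (backgrounds 8.59% and 6.08% higher, 1.32% and 1.5% lower). Only COL1A1 of the 5 was at or above the floor on all vehicle arrays. FN1 and SPP1 were under the floor on each vehicle array, entered the test through treated arrays and had to differ. TNC and MFGE8, named after their values were seen, also entered through treated arrays. They were under the floor on only some vehicle arrays, which favours a difference without forcing one. FN1, fibronectin, gave 2.61, 4.72 and 2.07 at 0 µM, 6.58, 6.78 and 7.19 at 5 µM, and 6.14, 5.94 and 6.49 at 10 µM. The change was 3.71 (SE 0.58, adjusted p 0.00165, at least 3.25-fold) and 3.06 (at least 2.06-fold). SPP1, osteopontin, was below the floor on each vehicle array and rose at least 4.01-fold and 1.95-fold, and it was lower at 10 µM than at 5 µM (-1.04, adjusted p 0.0266). COL1A1, a chain of type I collagen, rose by 2.68 and 1.98 log2. COL1A1 also stands in the list of fibroblast and endothelial markers, of which 4 of 12 were tested and 3 were called higher at 5 µM (background 8.59%). The others called were LUM at 1.57 and TEK, under the floor on 1 vehicle array, at 1.41. The summed signal of that list was 8.62 to 9.05 log2 at 0 µM, 10.28 to 10.41 at 5 µM and 9.56 to 9.87 at 10 µM. The part of these markers in the ligand values was not tested.

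Of 11 laminin-cleaving proteases 5 were tested, of which 1 rose and 1 fell at 5 µM (backgrounds 20.2% and 13.3%). At 10 µM against 0 µM 1 rose and none fell (backgrounds 19.8% and 13.3%). The one that fell at 5 µM, by less than 2-fold, was MMP7, matrilysin (-0.64, adjusted p 0.0205), named after its values were seen. MMP13, collagenase-3, gave 1.49, 3.50 and 3.31 at 0 µM, 7.96, 8.07 and 7.83 at 5 µM, and 5.53, 6.70 and 5.93 at 10 µM. It was under the floor on each vehicle array, entered the test only through treated arrays and had to differ from the vehicle. MMP13 was called in all 3 comparisons. Against 0 µM it was higher by at least 7.01-fold at 5 µM and at least 1.88-fold at 10 µM (backgrounds 8.59% and 6.08%). From 5 to 10 µM it was lower (-1.90, SE 0.50, adjusted p 0.0364, background 2.08%). Of 22 basement membrane partners 10 were tested and 10 were below the floor on all 9 arrays. FREM2, which lies at the epithelial basement membrane, was called lower at both doses (-1.12 and -1.07, backgrounds 1.32% and 1.5%). Of 11 listed hemidesmosome and other laminin receptors, 8 had a probe set used here, 6 were tested and none was called. RPSA, COL17A1 and DAG1 had no such probe set and were not examined, although the study reports an array value for RPSA.

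**Figure D5:**
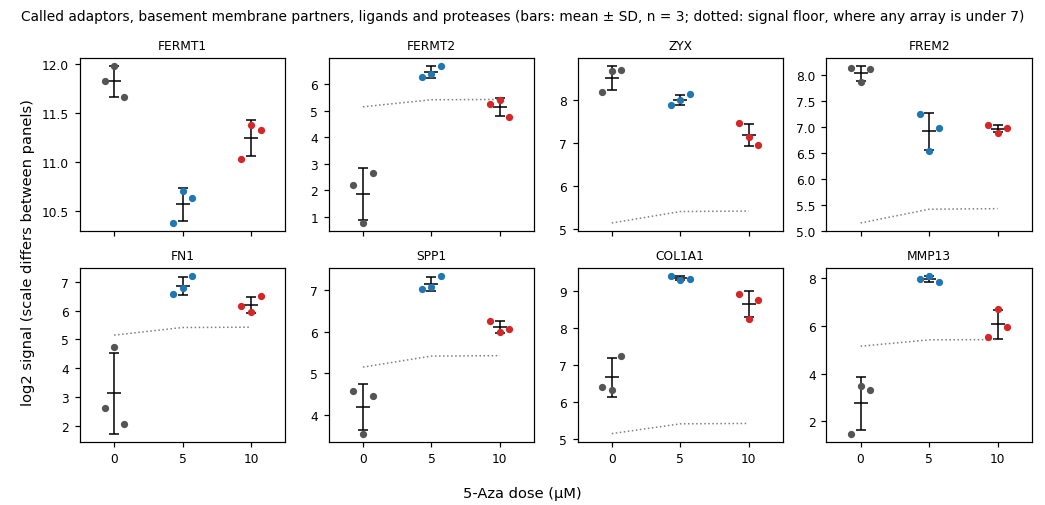
Log2 signal of 8 called genes of the adaptor, basement membrane, ligand and protease lists on each array by 5-Aza dose in µM, with the mean and SD (n = 3) in black and the floor dotted where any array was under 7. FERMT1 is lower and FERMT2 higher at 5 µM than at 0 µM, and MMP13 is highest at 5 µM (7.83 to 8.07).

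The actin control, read here as a sign of RNA quality, moved with dose. RNA integrity itself was not measured here, and the study states a minimum integrity score for its RNA. The actin control probe sets differed between the 3′ and the 5′ end by 1.91 to 2.29 at 0 µM, 2.49 to 2.69 at 5 µM and 2.84 to 3.17 log2 at 10 µM, so the groups did not overlap. With this value as a covariate, which leaves little contrast between the groups, ITGA7 alone kept an adjusted p under 0.05 at 5 µM (0.0456) among the 13 genes that had it, and none of the 7 did at 10 µM. At 5 µM the SE about doubled while differences such as those of ITGAM (4.08), ITGA10 (1.21), ITGA2 (-0.81), ITGB4 (-0.82), ITGAV (0.42) and ITGB8 (0.55) stayed within 1.5 times of the values above, and those of ITGA1 (0.17), ITGAE (0.12), ITGA6 (-0.42) and ITGB7 (0.66) were smaller by more than that, and that of ITGB5 (-0.55) was larger. The array medians moved too: with medians made equal, the median change of all tested genes shifted by -0.27 at 5 µM and -0.28 at 10 µM against 0 µM. The share of higher calls over all genes then went from 86.7% to 61.9% and from 80.2% to 49.1%, or to 78.6% and 68.9% with quantile normalization. The integrin and laminin calls at 5 µM were then 3 higher and 1 lower with equal medians and 3 higher and none lower with quantile normalization. At 10 µM against 0 µM they were 1 higher and 1 lower, and 1 higher and none lower. ITGB7 was the higher call lost at each dose under either normalization. At any fold, equal medians gave 5 genes higher and 6 lower at 5 µM, in place of 9 and 4, and 3 higher and 7 lower at 10 µM against 0 µM, in place of 5 and 2, with ITGA1, ITGAE, ITGAV and LAMB1 over the p threshold at 5 µM and ITGA10 and ITGB8 at 10 µM.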

How the data were processed

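Total RNA of 9 HT-29 cultures, 3 per dose of 5-Aza by the labels, had been hybridised to 1 single-color Affymetrix array each. The deposited values are log2 signals made by the authors for 54675 probe sets. The submitters' notes name RMA and affy 1.14.2, but the values have the form of MAS 5.0 signals: every low value was log2 of a multiple of 0.1, the linear 2% trimmed mean was 250.0 on all 9 arrays, and sorted values differed by up to 1.58 between arrays. Low signals are therefore noisy and arrays were scaled by 1 factor each. The number of arrays limits the precision.

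Probe sets with 1 gene in the platform table (41091, against 1801 with several and 11721 with none) were used, 1 per gene. Of the probe sets, 6 had a missing value. Tests were two-sided, with limma 3.58.1 (lmFit, eBayes) in R 4.3.3 on all 9 arrays and 1 mean per group. For a gene below the floor on all arrays of 1 group, a bound was computed with its values raised to the floor. The genes, lists and tests were chosen with earlier results of these data known. Named genes were those of the rule with an adjusted p of at most 0.05, and up to 3 called genes per list and comparison. The code was tested on simulated data. Alternatives were other filters, probe set rules, fits, normalizations, the methods' t-test, the actin control as a covariate and leaving out arrays. Sequences come from RefSeq (GRCh38.p14). RNA-Seq of these cultures was not analysed here. Plots were made in Python 3.11.15 with matplotlib 3.10.9.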

Additional observations from a re-analysis of the deposited data

How the results depend on the processing

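The calls at 5 µM against 0 µM (4 higher, 0 lower) stayed at 3 to 4 higher and 0 lower over the leave-one-out fits, with 1 higher under the actin covariate and 1 lower (ITGA2) with equal array medians. For 10 µM against 5 µM (0 and 0), leaving out single arrays gave 0 to 1 higher (LAMA5 without 10 µM replicate 2) and 0 to 1 lower (ITGAM, -2.47 without 10 µM replicate 1), and array weights gave 1 lower (ITGAM, -3.54). For 10 µM against 0 µM (2 higher, 0 lower), the count of higher calls was 0 with the methods' t-test, 1 with quantile normalization, 1 with equal array medians, 0 with the actin covariate and 4 without 10 µM replicates 2 and 3 (ITGA10 and ITGAM added), and 2 to 3 over the leave-one-out fits. Equal array medians gave 1 lower call there (ITGA2). The ITGB1 difference at 10 µM against 0 µM, -0.27, turned to 0.07 with quantile normalization. At any fold, the counts between the doses ran from 0 to 4 higher and 0 to 6 lower over 14 settings against 2 and 2. Why these counts moved was not tested. With the replicate number as a block the counts of calls stayed at 4, 0 and 2 higher and 0 lower. The 9 same-numbered pairs correlated at -0.089 to 0.179, with 2 over 0.1, and the 18 other pairs at -0.248 to 0.225. The same-numbered pairs thus did not stand out, but with so few arrays this does not exclude pairing. At any fold the block took the p over the threshold for ITGAE at 5 µM, ITGA10 and ITGB1 at 10 µM against 0 µM, and all 4 genes between the doses. Genes near the floor (ITGA7, ITGAM, ITGA10) are those whose size the signal limits most.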
